A study of Mus musculus with 6 samples.

Results

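The secondary and tertiary granule genes of neutrophils were followed in mouse MA9 leukaemia cells with intact or deleted Gata2, through 10 genes: Ltf, Camp, Ngp, Lcn2, Mmp8, Mmp9, Cd177, Chil3, Hp and Fcnb. They were chosen by symbol, as genes of late neutrophil granules, and each matched 1 of the 49585 rows of the count table. All 10 passed the filter on low counts, as did 13744 genes in all. RNA came from bone marrow leukaemia cells that the labels name MA9, commonly short for MLL-AF9, a fusion oncogene of acute myeloid leukaemia. One group had loxP-flanked Gata2 alleles (Gata2 f/f) and the other a Gata2 deletion (Gata2 KO, genotype Gata2 -/-, named Cre in the sample descriptions), with 3 libraries each, numbered 1 to 3. All 6 cultures had 5 uM Nutlin for 18 h, in medium with interleukin 3, interleukin 6 and stem cell factor. Nutlin keeps MDM2 from binding p53. Every culture received it, so its own effect was not measured. The effects of Cre and of the deletion cannot be told apart here. Not given in the sources used here were the promoter of Cre, the age of the animals and whether the 3 samples of a group were separate leukaemias. The p-values therefore measure only the spread between these samples, which may be technical.

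Neutrophils build their granules in waves as they mature. Primary granules, with myeloperoxidase and elastase, are filled in promyelocytes. Secondary granules, with lactoferrin, cathelicidin and neutrophil collagenase, follow in myelocytes and metamyelocytes, and tertiary granules, with gelatinase, come last. The transcription factor C/EBP epsilon is required for the secondary and tertiary wave, and PU.1 and C/EBP alpha act earlier in the lineage. Leukaemias with MLL fusions are usually arrested at a progenitor stage and express late granule genes weakly unless the cells differentiate.

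Library totals lay between 17138687 and 26440960 counts, and levels are given as CPM, the reads of a gene relative to the library size after scaling by TMM, a method that adjusts for differences in RNA composition. Gata2 itself went against a label. Gata2 f/f 1, 2 and 3 had 33.6, 22.3 and 18.4 CPM of it. Gata2 KO 1 and 3 had 5.44 and 4.33 CPM, but the library labelled Gata2 KO 2 had 43.3 CPM, the highest of the 6 (log2 fold change of the groups -0.49 ± 0.86, edgeR, adjusted p = 1.00). Results are therefore also given without that library. Hoxa9, a homeobox gene typical of MLL-fusion leukaemia, had 168 to 178 CPM with intact Gata2 and 197 to 231 CPM in Gata2 KO. Its log2 fold change was 0.29 ± 0.20 (edgeR), and 2.64% of all genes lay entirely higher in Gata2 KO. Ptprc, the pan-leukocyte antigen CD45, had 223 to 264 CPM and 231 to 293 CPM. Among 6 genes listed for MLL-fusion leukaemia identity, Hoxa9 and Ptprc did not stand for all. Myb was lower in the Gata2 KO library of every number (17.7% of all genes). It had 271, 247 and 125 CPM with intact Gata2 against 209, 208 and 74.6 CPM. Mpo ran from 28.0 to 952 CPM. The sample labels of both genotypes carry the same numbers, and libraries numbered 3 stood apart from the other 4 across many genes. By the deviation of each library from its group mean, equal numbers were taken to pair the samples. The pairing of numbers 1 and 2 is uncertain, because this check could not tell it from the swapped pairing. The within-number and block results rest on the labelled pairing. Gata2 f/f 1 correlated better with the library labelled Gata2 KO 2 (0.455) than with Gata2 KO 1 (0.294).

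The granule genes lay on chromosomes 2, 3, 7, 8 and 9 of the mouse genome (GRCm38), and none overlapped another annotated gene. Camp (ENSMUSG00000038357.10, chromosome 9, 109847379 to 109849617, minus strand), Ngp (ENSMUSG00000032484.8, chromosome 9, 110419747 to 110423012, plus strand) and Ltf (ENSMUSG00000032496.7, chromosome 9, 111019271 to 111042767, plus strand) lay within 1195 kb of each other. Mmp8 (ENSMUSG00000005800.3, 7558456 to 7568485, plus strand) lay far from them on the same chromosome 9. On chromosome 2 were Fcnb (ENSMUSG00000026835.15, 28076378 to 28084885, minus strand), Lcn2 (ENSMUSG00000026822.14, 32384633 to 32388252, minus strand) and Mmp9 (ENSMUSG00000017737.2, 164940780 to 164955850, plus strand). Cd177 (ENSMUSG00000052212.6) was at chromosome 7, 24743983 to 24760311, Chil3 (ENSMUSG00000040809.10) at chromosome 3, 106147554 to 106167564, and Hp (ENSMUSG00000031722.10) at chromosome 8, 109575128 to 109579172, all on the minus strand. All are protein-coding genes.

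RefSeq promoter sequences were matched for 8 of the 10 genes: Ltf, Camp, Ngp, Lcn2, Mmp8, Cd177, Chil3 and Fcnb. The 250 bases before the RefSeq start were searched on both strands for 3 motifs. The C/EBP letters TTNNGNAA were present in 7 of the 8 windows, against 36.8% of all 32851 RefSeq promoter windows of the same length. The PU.1 core GAGGAA was present in 4 of 8 (23.3% of all windows) and the GATA letters AGATAA in 2 of 8, Ltf and Chil3 (9.99% of all windows). A match is a description of letters and not a binding site. Camp was the window without the C/EBP letters, which says only that they are not in these 250 bases. In the windows of Camp, Ngp and Lcn2, 161, 61 and 197 bases are exon in the GENCODE annotation, which places these starts farther upstream. Below are 4 windows, chosen because they show how the letters are placed in genes with different patterns over the libraries, 5′ to 3′ on the strand of the gene, with the C/EBP letters in capitals. They are Cd177 (chr7:24760312-24760561, minus strand), Ltf (chr9:111019042-111019291, plus strand), Mmp8 (chr9:7558179-7558428, plus strand) and Fcnb (chr2:28084879-28085128, minus strand), all GRCm38.p6.
Cd177: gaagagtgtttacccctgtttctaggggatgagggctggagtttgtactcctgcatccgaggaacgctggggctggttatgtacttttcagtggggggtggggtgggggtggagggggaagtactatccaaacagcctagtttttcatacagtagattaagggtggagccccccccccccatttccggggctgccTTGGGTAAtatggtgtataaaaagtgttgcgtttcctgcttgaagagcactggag
Ltf: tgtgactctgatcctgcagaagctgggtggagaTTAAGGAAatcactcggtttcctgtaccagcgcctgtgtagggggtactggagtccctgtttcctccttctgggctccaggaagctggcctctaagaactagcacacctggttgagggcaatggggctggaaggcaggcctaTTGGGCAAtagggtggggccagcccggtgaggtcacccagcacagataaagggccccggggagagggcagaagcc
Mmp8: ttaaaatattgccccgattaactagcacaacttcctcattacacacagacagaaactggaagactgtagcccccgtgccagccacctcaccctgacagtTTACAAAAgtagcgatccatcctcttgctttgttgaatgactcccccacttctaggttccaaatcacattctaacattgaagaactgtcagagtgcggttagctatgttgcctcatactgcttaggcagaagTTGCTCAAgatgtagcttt
Fcnb: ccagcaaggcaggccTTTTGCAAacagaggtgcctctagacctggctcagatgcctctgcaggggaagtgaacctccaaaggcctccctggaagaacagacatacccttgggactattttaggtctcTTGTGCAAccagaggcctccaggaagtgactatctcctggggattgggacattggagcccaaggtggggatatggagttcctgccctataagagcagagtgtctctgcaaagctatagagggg

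The Ltf match TTGGGCAA, which begins 75 bases before the start, was also found in Ngp, beginning 11 bases before the start, and in Ngp its reverse complement TTGCCCAA began 138 bases before the start. These letters, on either strand, were present in 0.709% of all windows. The Mmp8 match TTGCTCAA, beginning 19 bases before the start, was also found in Lcn2, beginning 216 bases before it. On either strand these letters were present in 0.868% of all windows. In the GENCODE annotation the Ngp match at 11 bases lies in an exon, and the whole Lcn2 window lies inside the gene. Cd177 had a single match, TTGGGTAA, beginning 55 bases before the start. The PU.1 core letters lay in the windows of Ltf, Lcn2, Mmp8 and Cd177.

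Per kilobase of annotated exon, Hp stood far above the other granule genes. Hp encodes haptoglobin, which binds free haemoglobin. Its level per length ran from 764 to 4210.1 CPM per kb over the 6 libraries, and every library lay above the highest value of the next gene. Ngp followed with 52.3 to 356 CPM per kb. Next came Mmp8 (7.58 to 409 CPM per kb), Lcn2 (9.28 to 231), Cd177 (9.42 to 67.4) and Chil3 (3.53 to 53.8). Mmp9 (0.454 to 46.3), Camp (0.945 to 22.6), Ltf (0.612 to 5.03) and Fcnb (0.446 to 4.71) came last. In this order of means, each of these ranges overlapped those of its neighbours. Only Hp was separated from the next gene beyond the spread over libraries. Some genes farther apart in the order were separated too, as every Ngp value lay above those of Mmp9, Camp, Ltf and Fcnb. Within a gene the libraries differed widely, from 5.51-fold between the highest and lowest library for Hp to 102-fold for Mmp9.

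**Figure D1:**
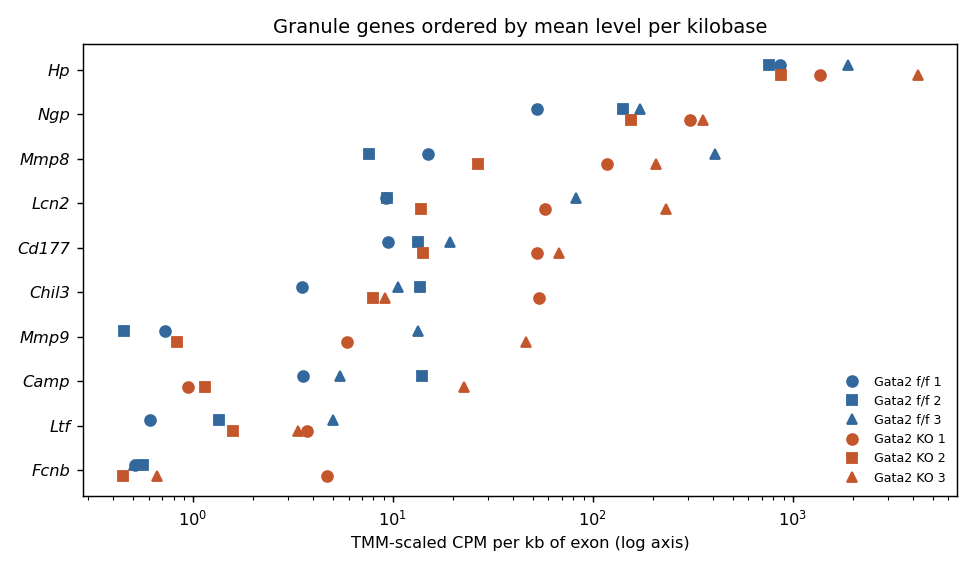
Level of each granule gene in each library as TMM-scaled CPM per kilobase of annotated exon, on a log axis, with genes ordered by their mean. Blue symbols are Gata2 f/f and orange symbols Gata2 KO, and circles, squares and triangles are numbers 1, 2 and 3. The Hp values (764 to 4210.1) lie to the right of those of every other gene.

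No granule gene passed the test between genotypes. In edgeR's quasi-likelihood test over all genes, without a block, 0 of the 10 were called, against 0.0% of the 13744 genes tested. At an unadjusted p under 0.05 there were 171 genes in all, and those higher in Gata2 KO were 0.728% of the genes tested. Of the granule genes 2 were among them, Ngp and Cd177. DESeq2 without a block called 2 genes higher and 5 lower (0.0146% and 0.0364%, 0.0509% in all) and limma voom 0, no granule gene among them. Of the 10 log2 fold changes 9 were positive, with a median of 1.26, where 52.5% of all genes were positive with a median of 0.02. These values rest on single libraries: without Gata2 KO 3 the median was 0.11 and 6 of the 10 were positive, and without Gata2 f/f 1 or Gata2 KO 1 it was 0.82. The groups overlapped for all 10 genes, while 2.64% of all genes lay entirely higher and 2.78% entirely lower in Gata2 KO. In bulk RNA, fewer cells that carry a transcript and less of it per cell cannot be told apart.

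Within numbers, a set of 5 granule genes was higher in the Gata2 KO library every time: Ngp, Cd177, Lcn2, Mmp9 and Hp. Of all genes tested, 20.7% were higher in the Gata2 KO library of every number. With the replicate number as a block, which left 2 residual degrees of freedom, edgeR called 0 of the 10 (0.0% of all genes). The same 5 had an unadjusted p under 0.05 in that fit, as had 7.41% of all genes in that direction. DESeq2 with the block called 4 of the 10 as higher in Gata2 KO, namely Ngp, Cd177, Lcn2 and Mmp9, against 1.31% of all genes (1.62% in either direction). Without the library labelled Gata2 KO 2, edgeR with the block called these 4 as well, against 0.231% of all genes. That fit rests on 2 complete pairs and 1 residual degree of freedom. In it the other granule genes had adjusted p from 0.462 (Hp) to 0.983 (Camp).

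**Figure D2:**
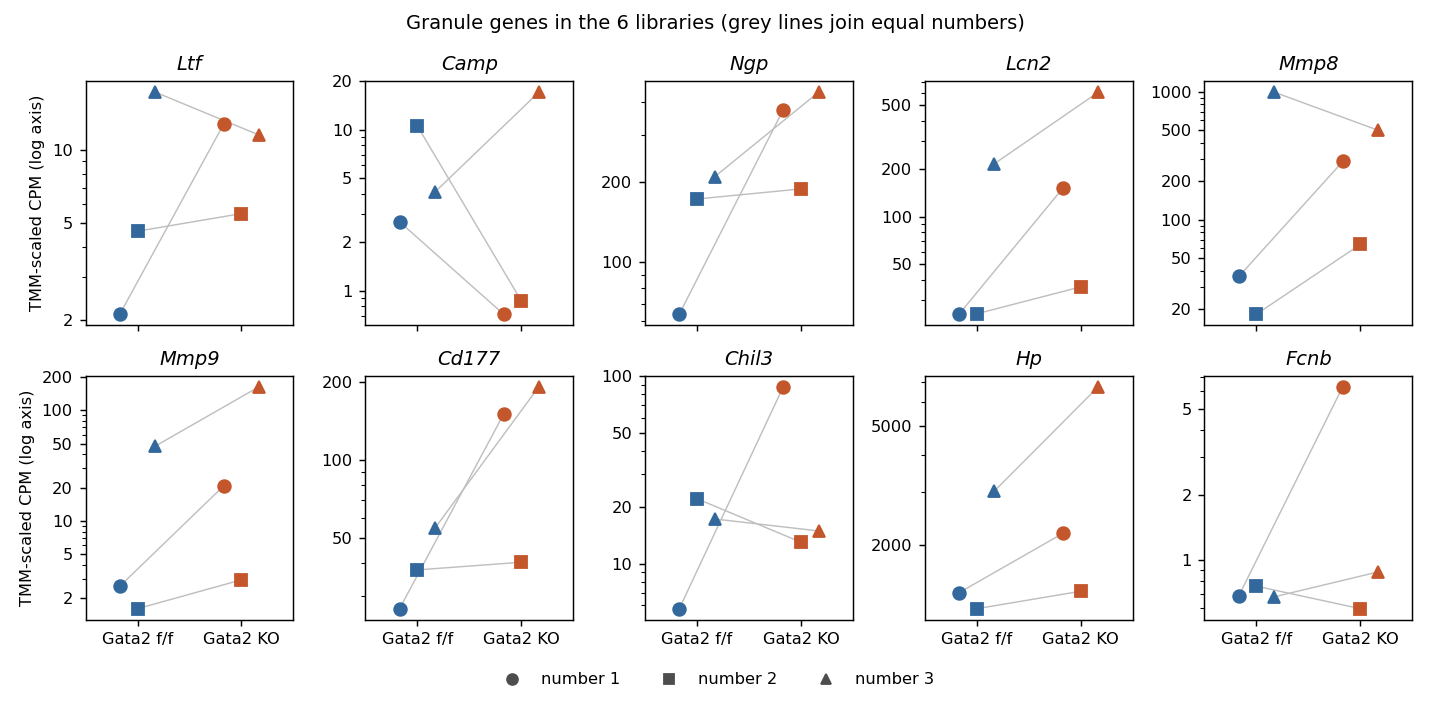
TMM-scaled CPM of the 10 granule genes in the 6 libraries, on log axes that differ between panels. Circles, squares and triangles are numbers 1, 2 and 3, and grey lines join equal numbers. For Ngp, Lcn2, Mmp9, Cd177 and Hp all 3 lines go up from Gata2 f/f to Gata2 KO, while for Camp 2 lines go down.

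Among the antimicrobial proteins of secondary granules, Ngp and Lcn2 were higher in the Gata2 KO library of every number, and Ltf and Camp were not. Ngp, neutrophilic granule protein, is related to the cathelicidins. Its levels in Gata2 f/f 1, 2 and 3 were 63.9, 173 and 209.6 CPM, against 374, 189 and 436 CPM in the Gata2 KO libraries of the same numbers. The Gata2 KO libraries 1 and 3 lay above all Gata2 f/f libraries, and the library labelled Gata2 KO 2 lay within their range. The means were 149 ± 75.8 and 333 ± 129 CPM (SD, n = 3 per genotype), and edgeR gave a log2 fold change of 1.16 ± 0.49 (SE, adjusted p = 1.00). Within numbers 1, 2 and 3 Ngp was 5.86-fold, 1.09-fold and 2.08-fold as high in Gata2 KO as in Gata2 f/f. DESeq2 with the block gave a log2 fold change of 1.21 ± 0.35 (adjusted p = 0.0386), and edgeR with the block 1.23 ± 0.44 (adjusted p = 0.433). Without the library labelled Gata2 KO 2, edgeR with the block gave 1.80 ± 0.37 (adjusted p = 0.0347, 1 residual degree of freedom).

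Lcn2 encodes lipocalin 2, which binds bacterial siderophores and so withholds iron. The Gata2 f/f libraries had 24.4, 24.5 and 215 CPM, and the Gata2 KO libraries 151, 36.2 and 606 CPM. Number 3 was the highest in both genotypes, and all 3 Gata2 KO libraries lay above the 2 lower Gata2 f/f libraries. The unblocked log2 fold change was 1.59 ± 1.19 (edgeR, adjusted p = 1.00), and without Gata2 KO 3 it was 0.07. Within numbers 1, 2 and 3 the Gata2 KO library was 6.22-fold, 1.48-fold and 2.82-fold as high. DESeq2 with the block gave 1.54 ± 0.33 (adjusted p = 0.000523), and edgeR with the block 1.56 ± 0.38 (adjusted p = 0.397). Without the library labelled Gata2 KO 2, edgeR with the block gave 2.06 ± 0.35 (adjusted p = 0.00356, 1 residual degree of freedom).

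Ltf encodes lactoferrin, an iron-binding protein that defines secondary granules. It was low, with 2.11, 4.64 and 17.4 CPM where Gata2 was intact and 12.8, 5.48 and 11.6 CPM in the Gata2 KO libraries. All 3 Gata2 KO values lay inside the Gata2 f/f range, with Gata2 f/f 3 the highest of the 6. Its log2 fold change was 0.31 ± 0.74 (edgeR, adjusted p = 1.00), and without Gata2 f/f 1 it turned to -0.18.

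Camp encodes the mouse cathelicidin, precursor of an antimicrobial peptide, and had a layout of its own over the libraries. The Gata2 f/f libraries had 2.68, 10.6 and 4.10 CPM, from 47, 237 and 103 reads. The Gata2 KO libraries had 0.716 CPM in number 1, 0.868 CPM in number 2 and 17.1 CPM in number 3, from 15, 16 and 407 reads. The lowest pair and the highest of the 6 libraries were thus all Gata2 KO. Its log2 fold change was 0.11 ± 1.20 (edgeR, adjusted p = 1.00) and turned to -1.10 with the replicate block and to -2.89 without Gata2 KO 3. In Gata2 KO 1, Camp was the lowest of the 6 libraries while Ngp and Lcn2 were 5.86-fold and 6.22-fold above Gata2 f/f 1. Across the 6 libraries the log2 level of Camp had a Pearson r of 0.09 with the mean of the other granule genes, where Lcn2 had 0.94, Cd177 0.92, Mmp9 0.90, Ngp 0.87, Ltf 0.86, Hp 0.83, Mmp8 0.80, Chil3 0.49 and Fcnb 0.39. These values describe 6 libraries that share genotype and number and carry no test.

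Both matrix metalloproteinases were higher in the 2 libraries numbered 3 than in the other 4. Mmp9 encodes gelatinase B, the protease that defines tertiary granules. Its level was 2.57, 1.61 and 47.4 CPM over the Gata2 f/f libraries and 20.8, 2.93 and 164 CPM over the Gata2 KO libraries. Gata2 KO 3 was the highest, and in each number the Gata2 KO library lay above its Gata2 f/f partner. The unblocked log2 fold change was 1.86 ± 1.63 (edgeR, adjusted p = 1.00) and turned to -0.57 without Gata2 KO 3. Between libraries of equal number the Gata2 KO library was 8.09-fold, 1.83-fold and 3.45-fold as high. DESeq2 with the block gave 1.90 ± 0.35 (adjusted p = 2.5e-05), and edgeR with the block 1.93 ± 0.39 (adjusted p = 0.388). Without the library labelled Gata2 KO 2, edgeR with the block gave 2.35 ± 0.39 (adjusted p = 0.00274, 1 residual degree of freedom).

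Mmp8 encodes neutrophil collagenase of the secondary granules. Gata2 f/f 1 and 2 had 36.2 and 18.4 CPM, but Gata2 f/f 3 had 992 CPM, the highest of all libraries. The Gata2 KO libraries had 285, 64.4 and 500.0 CPM. The Gata2 KO library was 7.89-fold and 3.50-fold as high in numbers 1 and 2, while in number 3 the log2 difference was -0.99. The unblocked log2 fold change was -0.30 ± 1.42 (edgeR, adjusted p = 1.00), against 3.34 without Gata2 f/f 3 (adjusted p = 0.693) and 1.33 ± 0.76 with the block (adjusted p = 0.545). It was 0.17 without the library labelled Gata2 KO 2.

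Cd177, a surface glycoprotein stored in secondary granule membranes, had the smallest unadjusted p of the 10 genes in the unblocked fit (0.0194). Intact libraries had 26.7, 37.7 and 54.6 CPM, and the Gata2 KO libraries 149.9, 40.4 and 191 CPM. Gata2 KO 1 and 3 lay above every Gata2 f/f library, and the library labelled Gata2 KO 2 lay among them. Over all genes, 9.12% had Gata2 KO 1 and 3 both above every Gata2 f/f library, as had 3 of the 10 granule genes, Cd177, Ngp and Fcnb. The log2 fold change of Cd177 was 1.68 ± 0.56 (edgeR, adjusted p = 1.00), and it ran from 1.23 to 2.10 when each library was left out in turn. DESeq2 with the block gave 1.47 ± 0.36 (adjusted p = 0.0062), and edgeR with the block 1.48 ± 0.45 (adjusted p = 0.403). Without the library labelled Gata2 KO 2, edgeR with the block gave 2.14 ± 0.35 (adjusted p = 0.00194, 1 residual degree of freedom).

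Hp made up most of the granule transcripts counted. Gata2 f/f libraries had 1387, 1226 and 3032 CPM of it and Gata2 KO libraries 2190.3, 1402.5 and 6761 CPM, between 66.1% and 89.4% of the summed CPM of the 10 genes. Both libraries numbered 3 lay above the other 4. Within numbers the Gata2 KO library was 1.58-fold, 1.14-fold and 2.23-fold as high. The unblocked log2 fold change was 0.88 ± 0.64 (edgeR, adjusted p = 1.00), turning to -0.09 without Gata2 KO 3. DESeq2 with the block gave 0.65 ± 0.24 (adjusted p = 0.167).

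Chil3 and Fcnb were highest in Gata2 KO 1 alone. Chil3 encodes a chitinase-like lectin also called Ym1, made by neutrophils and some macrophages. With intact Gata2 it had 5.76, 22.2 and 17.3 CPM. Gata2 KO 1 had 87.9 CPM, and the libraries labelled Gata2 KO 2 and 3 had 13.03 and 14.96 CPM, inside the Gata2 f/f range. Its log2 fold change of 1.35 ± 0.84 (edgeR, adjusted p = 1.00) turned to -0.14 without Gata2 KO 1. Chil4, a close copy of Chil3 between which reads could be split, had 1 read in Gata2 f/f 1 and 0 in the other 5 libraries. Fcnb encodes ficolin B, a lectin that starts the complement cascade. Its Gata2 f/f levels were 0.684, 0.758 and 0.677 CPM (12, 17 and 17 reads). Gata2 KO 1 had 6.30 CPM (132 reads), while the libraries labelled Gata2 KO 2 and 3 had 0.597 and 0.882 CPM (11 and 21 reads). The log2 fold change of Fcnb was 1.87 ± 0.90 (edgeR, adjusted p = 1.00), and 0.05 without Gata2 KO 1. Olfm4, olfactomedin 4 of a subset of secondary granules, had a like layout, with 60.5 CPM in Gata2 KO 1 and the other 5 libraries between 2.85 and 14.75 CPM. It was picked out after its values were seen.

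**Figure D3:**
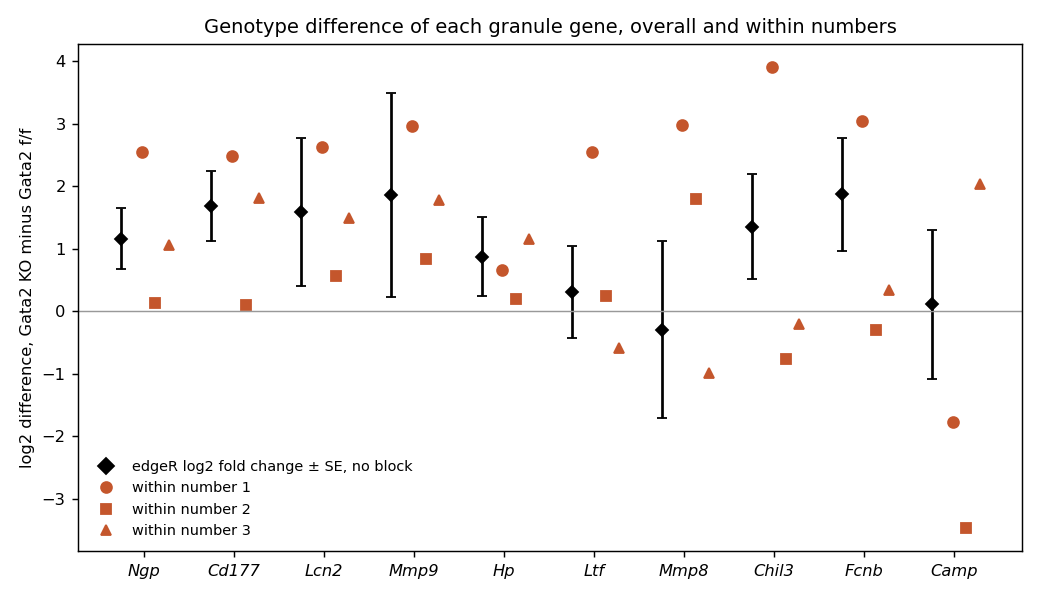
Log2 difference of Gata2 KO minus Gata2 f/f for each granule gene. Black diamonds are the edgeR log2 fold change without a block, with bars of 1 SE, and orange circles, squares and triangles are the differences within numbers 1, 2 and 3 (log2 CPM with a prior count of 2). For Ngp, Cd177, Lcn2, Mmp9 and Hp all 3 differences are above 0, and that of number 2 is the smallest.

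The 10 genes thus differed in which library was highest: Gata2 KO 3 for Ngp, Lcn2, Mmp9, Cd177, Hp and Camp, Gata2 KO 1 for Chil3 and Fcnb, and Gata2 f/f 3 for Ltf and Mmp8. The lowest library was Gata2 f/f 1 for 5 genes, Gata2 f/f 2 for 3, and Gata2 KO 1 and the library labelled Gata2 KO 2 for 1 each. The median log2 difference over the 10 genes was 0.16 in number 2, against 2.59 in number 1 and 1.11 in number 3. Single genes in number 2 went both ways, from -3.47 for Camp to 1.80 for Mmp8. The Gata2 KO library of number 2 is the one with high Gata2, and its value was inside the Gata2 f/f range for 8 of the 10 genes, as it was for 68.8% of all genes. Without the library labelled Gata2 KO 2 all 10 log2 fold changes were positive in the unblocked fit, with a median of 1.60, and none passed (edgeR, adjusted p from 0.915 to 0.986).

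The number of a library was tested as a term of its own, in edgeR's fit with genotype and number. Mmp9 (adjusted p = 0.00819), Lcn2 (0.0162) and Hp (0.0238) differed between numbers, 3 of the 10 genes against 9.09% of all genes. Mmp8 missed the threshold (adjusted p = 0.0503). Ngp, Cd177, Ltf, Camp, Fcnb and Chil3 did not pass (adjusted p from 0.254 to 0.695). Both libraries numbered 3 lay above the other 4 for Mmp8, Mmp9, Lcn2 and Hp, 4 of 10 genes against 21.1% of all genes. Summed monocyte and macrophage markers were highest in the same libraries, at 2777 and 2973.5 CPM, and their part in these values was not tested. Without both libraries numbered 3, the log2 fold changes were 2.65 for Mmp8, 2.47 for Mmp9, 1.90 for Lcn2, 1.51 for Cd177, 1.20 for Ngp, 0.42 for Hp and -3.11 for Camp, and none passed edgeR's test (adjusted p from 0.306 to 0.746 over the 10 genes).

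The neighbours of Camp, Ngp and Ltf on chromosome 9 were also measured. Of the 28 other protein-coding genes between Camp and Ltf, 15 were tested. Their median log2 fold change was 0.14, beside the median of 1.26 over the granule genes. Of the 15, 10 were positive (52.5% of all genes). No gene among them was called by edgeR or by DESeq2 with the block. Of the 15, 1, Ptpn23, was higher in the Gata2 KO library of every number (20.7% of all genes).

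Other genes listed for the later neutrophil stages mostly had positive log2 fold changes too, and those of primary granule genes were smaller. For comparison with this and the following lists, 52.5% of all genes were positive. DESeq2 with the block called 1.31% of all genes higher and 0.306% lower. Among 18 tested genes of other secondary and tertiary granule and secretory vesicle proteins, 16 had positive log2 fold changes (median 0.65) and edgeR called 0. DESeq2 with the block called 4 higher, the lysozyme gene Lyz2, the metal transporter Slc11a1, the protease Adam8 and the formyl peptide receptor Fpr2, and 1 lower, the protease inhibitor Slpi. Those of smallest p were Mmp25, a membrane metalloproteinase (log2 fold change 1.76 ± 0.70), the adhesion molecule Ceacam1 (0.70 ± 0.39) and the acute phase gene Orm2 (0.69 ± 0.40). Of 19 tested genes of mature neutrophils, mostly of cytosolic and surface proteins, 15 were positive (median 0.73) and edgeR called 0. The smallest p values were those of Mxd1, a Myc antagonist (0.73 ± 0.28), S100a9, a subunit of calprotectin (1.66 ± 0.68), and the chemokine receptor Cxcr2 (2.66 ± 1.10). Cxcr2 had 6.50, 3.39 and 19.1 CPM in the intact libraries and 33.1, 7.06 and 144 CPM in the Gata2 KO libraries, with number 3 again the highest of each. DESeq2 with the block called Cxcr2, Il1r2, Wfdc21 and S100a8 in that list, all higher. The 4 negative genes of the list were Gca, Stfa2, Stfa3 and BC100530. Gca was lower in the Gata2 KO library of every number (log2 differences -0.26, -0.45 and -0.42). Ly6g was lower in Gata2 KO in numbers 1 and 2 (-0.19 and -0.45) and higher in number 3 (2.13). Between numbers, 10 of 18 and 13 of 19 genes of these lists were called, where 9.09% of all genes were. Whether monocytes or macrophages also express the listed genes was not tested. The mean log2 level of the 18 genes, minus its average, was 1.05, 0.41 and 1.39 in Gata2 f/f 3, Gata2 KO 1 and Gata2 KO 3. That of the monocyte and macrophage markers was 1.60, 0.0015 and 1.47.

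Of the 12 primary granule genes 10 were positive, with a median of 0.25, and neither edgeR nor DESeq2 with the block called any. Prtn3, proteinase 3, had 0.51 ± 0.29, the cystatin Cst7 0.45 ± 0.30, and Bpi, which binds bacterial endotoxin, -0.65 ± 0.68. Per library, the mean log2 level of the primary granule list moved within -0.31 and 0.31 of its average, while that of the 10 secondary and tertiary granule genes moved from -1.36 in Gata2 f/f 1 to 1.53 in Gata2 KO 3. Single members of the primary list moved in opposite ways. Mpo, myeloperoxidase, ran from 27.98 CPM in Gata2 KO 3 to 952 CPM in Gata2 KO 1. Ctsc, the protease that activates the granule serine proteases, ran from 118 to 869.8 CPM and was highest in both libraries numbered 3. The difference between these lists was not tested.

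Among 11 tested regulators of granulocyte maturation 10 were positive (median 0.31) and edgeR called 0. Spi1, which encodes PU.1, had 259, 220.3 and 352 CPM in the intact libraries and 499.8, 299 and 636 CPM in the Gata2 KO libraries, higher in the Gata2 KO library of each number (log2 fold change 0.79 ± 0.34). It was the regulator that DESeq2 with the block called (adjusted p = 0.0384). Cebpd had 0.85 ± 0.44 and Cebpb 0.54 ± 0.45. Cebpe, looked up as the known factor of the late granule wave rather than for its p, had 54.2, 77.5 and 54.4 CPM in the intact libraries and 72.8, 65.7 and 85.4 CPM in the Gata2 KO libraries (0.27 ± 0.24). Its groups overlapped, over a far narrower range than Mmp9 or Lcn2.

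**Figure D4:**
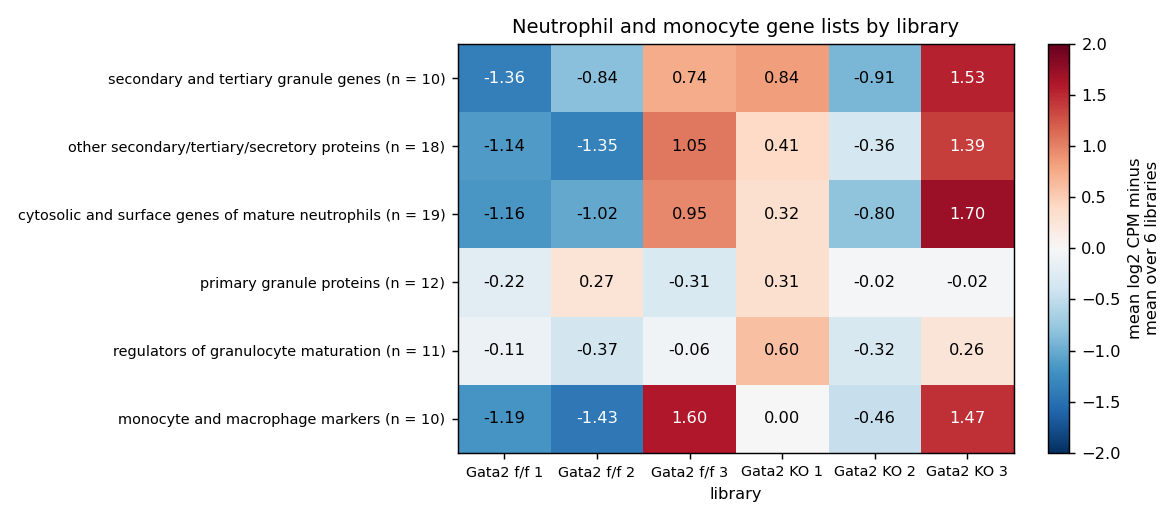
Mean log2 CPM of each gene list in each library, after subtracting every gene's mean over the 6 libraries, with the number of tested genes in brackets. Red is above and blue below the mean of the 6. The secondary and tertiary granule genes run from -1.36 in Gata2 f/f 1 to 1.53 in Gata2 KO 3, and the mean of the primary granule list stays within -0.31 and 0.31, over members that moved in opposite ways.

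Markers of other cell types were checked beside the granule genes. All 10 monocyte and macrophage markers were detected. Their summed level ran from 751 to 2777 CPM with intact Gata2 and from 1023 to 2973.5 CPM in Gata2 KO. The sum was highest in number 3 of both groups, as were Mmp8, Mmp9, Lcn2 and Hp. Of the 10 markers, 6 differed between numbers (9.09% of all genes). Between genotypes 8 of 10 were positive, with a median log2 fold change of 0.27 (0.77 with the block), and edgeR called 0. DESeq2 with the block called Cd68, a lysosomal protein of macrophages, as higher in Gata2 KO (adjusted p = 7.5e-06). Within numbers 1, 2 and 3 the median log2 difference of the list was 1.15, 0.93 and -0.08. That of the granule genes was 2.59, 0.16 and 1.11, higher than the marker list in numbers 1 and 3 and lower in number 2. This difference between the lists was not tested. The highest, Ly6c2, ran from 554 to 926 CPM and from 563 to 1025 CPM. Summed T cell markers reached at most 3.78 CPM in any library, with Cd8a the highest. Summed B cell markers were at 18.7 to 41.7 CPM, mostly Ighm, with Pax5 at 0 reads throughout. Erythroid markers summed to at most 11.02 CPM (highest Hbb-bs), mast cell and basophil markers to at most 16.5 CPM (highest Mcpt8), and megakaryocyte markers to at most 26.9 CPM (highest Ppbp). Eosinophil markers summed to 26.3 CPM in the library labelled Gata2 KO 2, led by Prg2 (14.5 CPM), and to between 3.30 and 4.73 CPM in the other 5, with Ear1 at 0 reads in all. Stromal and endothelial markers summed to between 129 and 215 CPM, mostly Pecam1, which blood cells also express. The other 6 of that list were low, but 4 of the 7 differed between numbers (9.09% of all genes) and 5 of the 7 were higher in the Gata2 KO library of every number (20.7% of all genes). Col1a1, a collagen chain of stromal cells, had 13.8 and 16.7 CPM in the Gata2 f/f and Gata2 KO libraries numbered 3 and at most 5.54 CPM in the other 4. Col3a1, Col1a2 and Cdh5 were likewise highest in both libraries numbered 3. The part of these markers in the granule gene values was not tested.

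Outside all lists, genes whose log2 levels over the 6 libraries were among the most like the mean standardised level of the 10 granule genes were Klhl26, Stom, Neu1 and Fermt3, out of 9239 protein-coding genes with a mean of at least 5 CPM. Their Pearson r was 0.99 for Klhl26, Stom and Neu1 and 0.98 for Fermt3, with Spearman rho from 0.94 to 1.00 (n = 6 libraries). With 6 libraries and so many candidates such values are a description. Neu1, a lysosomal sialidase, had 106, 125 and 157 CPM in the Gata2 f/f libraries and 179.5, 129.5 and 202 CPM in the Gata2 KO libraries, a far narrower range than that of Mmp9 or Lcn2. Of these 4 genes none passed edgeR's test (adjusted p = 1.00 each).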

How the data were processed

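Poly(A) RNA of 6 Nutlin-treated cultures was sequenced. The authors deposited whole-number counts per gene, not normalised. Kallisto, HTSeq, DESeq2 and mm10 appear, with no role or version, in the submitters' processing notes. Which tool counted, the annotation and the strand setting were not given in the sources used here. Symbols came from GENCODE M21 by Ensembl ID without version (49326 of 49585 matched; unmatched rows held 0.00962% of counts).

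Genes were filtered with filterByExpr (minimum count 10), scaled by TMM and tested with edgeR's quasi-likelihood test (Benjamini-Hochberg over 13744 genes, threshold 0.05). The log2 fold changes are Gata2 KO over Gata2 f/f. The scripts were tested on simulated data. Alternatives were other scalings, filters, DESeq2, limma voom, the block, and left-out libraries. Versions were R 4.3.3, edgeR 4.0.16, limma 3.58.1 and DESeq2 1.42.0. Counts are reads, not molecules.

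Deviations from group means correlated at 0.294, 0.555 and 0.653 between libraries of number 1, 2 and 3. All were above the bound of 0.1, so numbers were taken as pairs. Gata2 f/f 1 correlated better with the library labelled Gata2 KO 2 (0.455) than with its own number, and Gata2 f/f 2 with Gata2 KO 1 at 0.104. The swapped pairing of numbers 1 and 2 thus passed the same bound, which could not tell the 2 pairings apart. What the numbers stand for is not in the labels. The granule genes and lists were chosen with earlier results of these data known. Genes named were the 10, Gata2, the 3 of smallest p per neutrophil or regulator list with those called, the highest of each marker list, and the 5 of most similar pattern, of which 1 is not reported here. Others were added after their values were seen: those called by DESeq2 with the block, Hoxa9, Ptprc, Chil4, Olfm4, Cebpe, Ptpn23, Mpo, Ctsc, Col1a1, Col3a1, Col1a2, Cdh5, Pax5 and Ear1. Myb, Ly6g, Gca, Stfa2, Stfa3 and BC100530 were added in the same way.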

Additional observations from a re-analysis of the deposited data

How the results depend on the processing

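The count of granule genes called between genotypes was 0 without a block and stayed 0 in 15 of 17 alternatives, among them each library left out in turn. It was 4 by DESeq2 with the replicate block and 4 by edgeR with the block and without the library labelled Gata2 KO 2. Over all genes the count of calls was 0 and became 7 with DESeq2, 222 with DESeq2 and the block and 54 with the block and without the library labelled Gata2 KO 2. The edgeR block fit alone called 0. The cause was not tested. The median log2 fold change of the 10 genes was 1.26 and ran from 0.11 to 1.64 over the libraries left out in turn, lowest without Gata2 KO 3.

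The sign of Camp turned with total counts only (-0.077), limma voom (-1.06), the replicate block (-1.10), DESeq2 with the block (-1.37), without both libraries numbered 3 (-3.11), and without Gata2 f/f 1, Gata2 f/f 3 or Gata2 KO 3. Over the libraries left out in turn Camp ran from -2.89 to 0.87. That of Mmp8 turned with limma voom (1.25), the block (1.33), DESeq2 with the block (1.33), without both numbered 3 (2.65) and with the block once the library labelled Gata2 KO 2 was left out (0.98), and over left-out libraries it ran from -1.02 to 3.34. The ranges over left-out libraries of the other genes that turned were -0.18 to 1.502 for Ltf, -0.57 to 4.88 for Mmp9, -0.14 to 1.76 for Chil3 and -0.090 to 1.37 for Hp. Ngp, Lcn2, Cd177 and Fcnb kept a positive sign in all 17 alternatives. Fcnb fell to 0.047 ± 0.54 without Gata2 KO 1 and Lcn2 to 0.065 ± 1.18 without Gata2 KO 3. Ngp and Cd177 fell no lower than 0.75 and 1.23 over the libraries left out in turn. The count of granule genes that differed between numbers was 3 beside 1249 of all 13744 genes. It was 3 beside 1231 with DESeq2 size factors, 3 beside 719 with total counts only, and 4 beside 2870 by DESeq2's likelihood ratio test. Fcnb and Camp rest on as few as 11 and 15 reads in a library.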
